A study of Homo sapiens with 6 samples.

Results

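The kinases ATM, ATR, CHEK1 and CHEK2 and the proteins that carry signals to and from them form the S-phase checkpoint, and TIMELESS and TIPIN protect the replication fork. The 10 genes described here are ATM, ATR, ATRIP, TOPBP1, CLSPN, TIMELESS, TIPIN, CHEK1, CHEK2 and CDC25A, chosen by symbol from the 60564 genes of the count table, in which each was listed once. RNA sequencing was carried out on 3 libraries with CNTNAP2-203 overexpression (OE) and 3 control libraries. The OE cells had been infected with lentivirus encoding CNTNAP2-203 (a transcript of CNTNAP2, a gene for a neuronal adhesion protein) and the control cells with a control vector, with EGFP in the names of their libraries and a wild-type genotype in their labels. All 6 libraries were from CAL27, an established cell line of oral squamous cell carcinoma, after selection with 5 μg/ml puromycin for 2 weeks. Neither the promoter of the vector nor whether a line was 1 clone or a pool is stated in the labels. Nor do they tie the 3 libraries of a group to separate cultures, and the p-values below thus describe the scatter of these libraries, which may be technical.

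When replication stalls, single-stranded DNA coated with RPA recruits ATR through its partner ATRIP, and TOPBP1 switches the kinase on. Claspin, the product of CLSPN, brings the effector kinase CHK1 (CHEK1) to ATR, and the TIMELESS-TIPIN complex keeps helicase and polymerase together and helps this relay. ATM answers mainly to double-strand breaks and acts through CHK2 (CHEK2), and both effector kinases mark the phosphatase CDC25A for destruction, which holds back the cyclin-dependent kinases. Several of these genes, among them CLSPN, CHEK1 and CDC25A, are known to be transcribed at the entry to S phase under E2F factors, while the proteins are controlled to a large part by phosphorylation and degradation, which RNA counts do not measure.

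Total counts were 36843190 to 42412703 in the OE libraries and 38769375 to 41754789 in the controls. CNTNAP2, the introduced gene, had 140022, 156055 and 119280 counts in OE replicates 1, 2 and 3, against 0, 3 and 4 in control replicates 1, 2 and 3. Of 7 squamous epithelial markers all were tested, and their sum was 12897 to 15643 CPM (TMM-scaled counts per 1000000) in OE and 12762 to 14734 CPM in controls. That sum is mostly KRT5 and KRT14, and its members differed in direction: KRT5 was above every control in all OE libraries, at 5907 to 7012 CPM in OE and 4570 to 5522 CPM in controls. KRT17 (1396 to 1857 CPM in OE and 2211 to 2397 CPM in controls) and DSG3 (118 to 161 CPM in OE and 186 to 252 CPM in controls) were below every control, and TP63 was lowest in OE replicate 3, at 70.9 CPM. None of the 7 passed the test described below (adjusted p = 0.0848 for KRT17 and above that for the others). The leukocyte, endothelial and fibroblast lists of 3 markers each summed to 33.2 to 36.2, 7.74 to 11.5 and 27.5 to 32.0 CPM in OE, against 28.4 to 37.8, 5.98 to 9.58 and 29.2 to 35.5 CPM in controls. Of these lists PTPRC, PECAM1 and DCN were too low to be tested, with 0 to 13 counts in any library. The other markers were tested, among them CD68 (means of 33.9 CPM in OE and 31.1 CPM in controls), CDH5 (7.94 and 6.04 CPM) and COL1A1 (25.7 and 29.6 CPM). OE replicate 3 had the lowest total, the fewest genes with a count (25336, against 26730 and 27002 in the other OE libraries) and the largest distance from its group, and values without it are given where a call ended or began or a named log2 fold change moved by over 1.5 times.

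The promoters of CLSPN, TOPBP1 and CDC25A are shown because they alone of the 10 hold an E2F-type word. The window ran from 250 bases before to 50 bases after the start given by RefSeq. That of CHEK1 is shown as an example of the other genes, where none of the E2F-type words searched was found. Other spellings of such sites and other start sites were not searched. The search was for TTTCCCGC, TTTGGCGC, TTTGCCGC and TTTCGCGC and for CCAAT, on both strands, in the RefSeq promoters of GRCh38.p14, where all 10 genes were found by symbol. Each sequence runs from 130 bases before the start to 20 bases from it, 5′ to 3′ on the strand of the gene, with E2F-type words and CCAAT in capitals as they read on that strand.
CLSPN, chr1:35769959-35770108, minus strand: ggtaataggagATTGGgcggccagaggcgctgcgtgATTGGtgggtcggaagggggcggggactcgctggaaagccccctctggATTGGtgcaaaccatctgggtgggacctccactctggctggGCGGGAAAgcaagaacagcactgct
TOPBP1, chr3:133661922-133662071, minus strand: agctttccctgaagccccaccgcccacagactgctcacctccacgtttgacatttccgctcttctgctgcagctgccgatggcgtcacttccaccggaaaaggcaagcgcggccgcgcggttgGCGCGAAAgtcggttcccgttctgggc
CDC25A, chr3:48188398-48188547, minus strand: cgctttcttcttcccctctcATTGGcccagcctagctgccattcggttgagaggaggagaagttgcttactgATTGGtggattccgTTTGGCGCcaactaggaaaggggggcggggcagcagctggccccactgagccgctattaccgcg
CHEK1, chr11:125626099-125626248, plus strand: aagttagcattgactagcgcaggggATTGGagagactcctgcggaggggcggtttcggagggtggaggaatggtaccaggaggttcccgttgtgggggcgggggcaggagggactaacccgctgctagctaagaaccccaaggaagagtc

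Positions are those of the first base of a word on the gene's strand, relative to the start. In CLSPN the E2F-type word, read on the reverse strand, began at -5, and 3 CCAAT words lay upstream of it at -119, -94 and -46. In CDC25A the E2F-type word began at -44, with CCAAT at -110 and -58, and in TOPBP1 it began at -7, with no CCAAT in the window. CHEK1 had CCAAT at -105. These 3 of 10 genes held an E2F-type word, which was so for 4.61% of the 16356 promoters of tested genes and 3.31% of all 35116 promoters. CCAAT was in the promoters of 8 of the 10 genes, all but ATR and TOPBP1, and in 34.4% of those of tested genes. The words TTTGAA and TTCGAA, of the kind found in promoters of mitotic genes, were in the promoter of ATM alone among the 10, at -20, and in 12.1% of those of tested genes. A match describes the letters and does not show that a factor binds there.

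Of the 10 genes 1 rose in OE, the claspin gene CLSPN, and none fell. CLSPN was at 46.2 ± 5.67 CPM in OE and 23.2 ± 1.66 CPM in controls (SD, n = 3 each), a 1.99-fold difference. All 10 were tested, and 9 had a positive log2 fold change and ATM a negative one. Of all 18786 tested genes 9315 had a positive one. The median of the 10 was 0.37 (1.29-fold), beside -0.0038 over all tested genes. The 10 were chosen with earlier results of these data known, so such counts describe them and test nothing. A call required an adjusted p under 0.05 in edgeR's quasi-likelihood test over all tested genes, which 0.798% of them reached as higher, 0.596% as lower and 1.39% in all. Without adjustment, 7 of the 10 had a p under 0.05, all higher, against 9.41% of all tested genes that were higher at that level and 17.2% in either direction. These are cultures measured in bulk, so more cells in S phase and more RNA per cell cannot be told apart.

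In 7 of the 10 genes, CLSPN, CDC25A, TIMELESS, CHEK2, TIPIN, ATRIP and TOPBP1, every OE library lay above every control. This held for 13.7% of all tested genes, and the opposite order, found for 12.8% of them, for none of the 10. Relative to the control mean, the median log2 CPM of the 10 genes was 0.37, 0.33 and 0.55 in OE replicates 1, 2 and 3, against -0.10, 0.07 and -0.00097 in control replicates 1, 2 and 3. All 10 genes were above the control mean in OE replicates 1 and 2, and 8 in OE replicate 3, the exceptions being ATM and ATR. The scatter of the single libraries is shown in the plot of CPM by library.

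**Figure D1:**
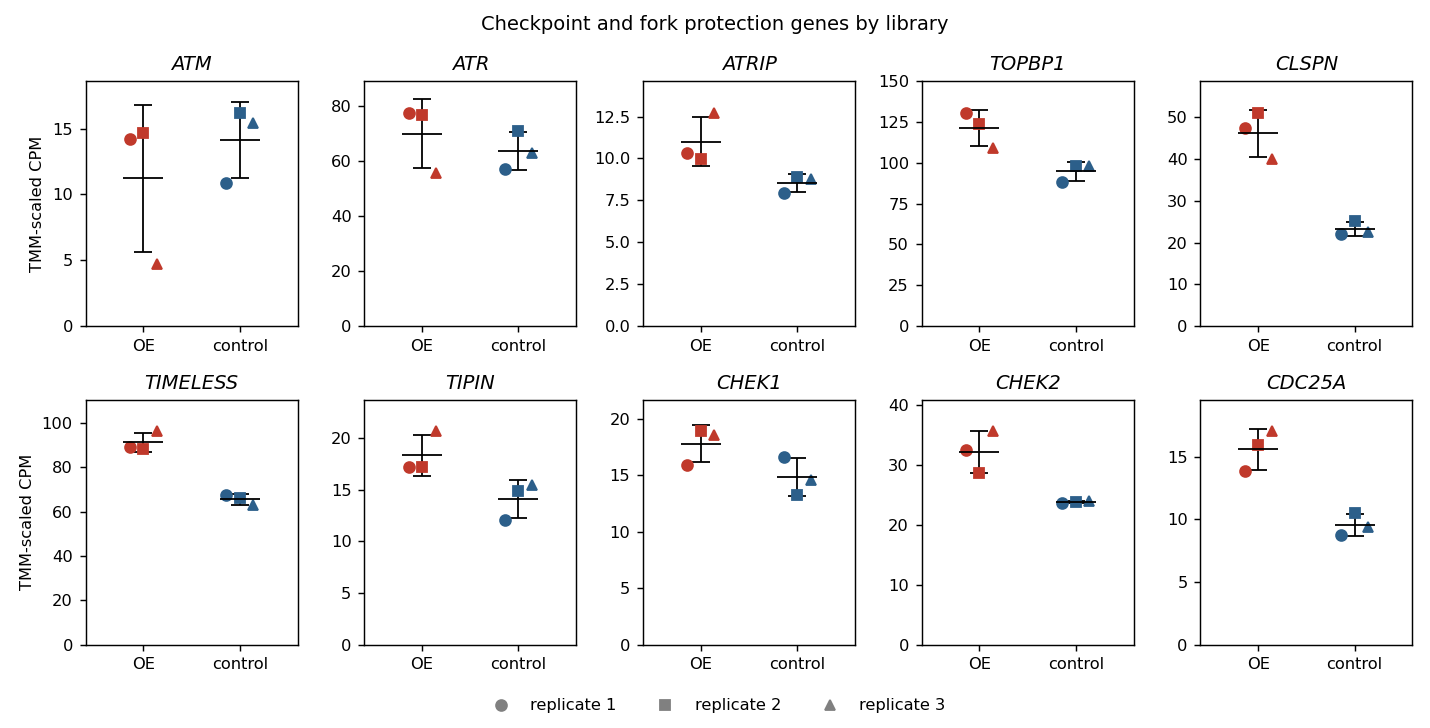
TMM-scaled CPM of each of the 10 genes (vertical axes, each starting at 0) in the OE libraries and the controls; points are libraries, shaped by replicate number, the long bar is the mean and the whiskers the SD of 3 libraries. CLSPN averaged 46.2 CPM in OE and 23.2 CPM in controls without overlap, while ATM in OE replicate 3, at 4.74 CPM, lay below all other libraries.

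The upstream kinases themselves did not pass the test. ATR, the kinase of stalled forks, was at 77.4, 76.7 and 55.5 CPM in OE replicates 1, 2 and 3, against 57.1, 71.0 and 62.9 CPM in control replicates 1, 2 and 3. OE replicates 1 and 2 were thus above all controls and OE replicate 3 was below them, and the groups overlapped. The log2 fold change of ATR was 0.13 (95% interval -0.22 to 0.49, edgeR adjusted p = 0.688). It was 0.27 without OE replicate 3 (adjusted p = 0.241), 0.22 without control replicate 2, and 0.06 without OE replicate 1, OE replicate 2 or control replicate 1.

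ATM, the kinase of double-strand breaks, was at 14.2, 14.7 and 4.74 CPM in OE replicates 1, 2 and 3, against 10.8, 16.2 and 15.4 CPM in control replicates 1, 2 and 3. The low value is a raw count of 166, beside 430 to 651 in the other 5 libraries, and the remaining OE values lay within the range of the controls. The log2 fold change was -0.33, with an interval from -1.35 to 0.69 (edgeR adjusted p = 0.729), and without OE replicate 3 it was 0.03. It was -0.54 without OE replicate 1 and -0.57 without OE replicate 2, and none of these fits called the gene.

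ATM and ATR are also the longest of the 10 genes, with 24.0 and 12.5 kb of annotated exon sequence, and low values of OE replicate 3 went with length across the transcriptome. The log2 CPM of OE replicate 3 minus the mean of OE replicates 1 and 2 had a median of 0.22 over genes with under 2 kb of exons, -0.29 over those with 10 to 20 kb and -0.38 over the 150 genes with more than 20 kb. For ATR this difference was -0.47, and 31.8% of the genes of its length class were lower. For ATM it was -1.60, and 4.67% of its class were lower. The part of gene length in these values was not tested beyond removing its trend. That removal used the lengths implied by both deposited tables, 33386 bases for ATR and 29584 for ATM, and not the exon lengths above. The implied length is 2.67 times the exon length for ATR and 1.23 times for ATM, so ATR was treated as the longer gene. After the removal the log2 fold change was 0.31 for ATR (edgeR adjusted p = 0.115) and -0.21 for ATM (adjusted p = 0.785). How far the value of ATR depends on its implied length was not tested.

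**Figure D2:**
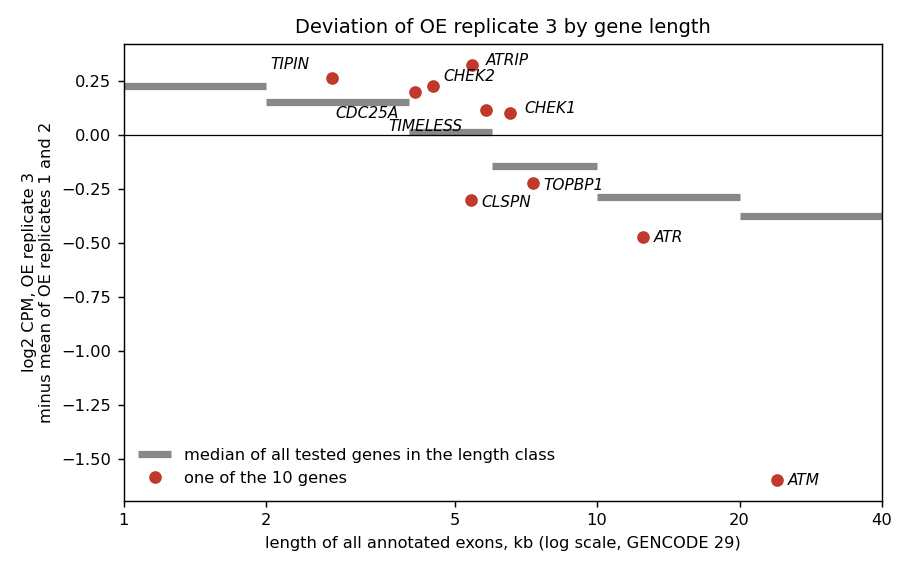
Log2 CPM of OE replicate 3 minus the mean of OE replicates 1 and 2 (vertical axis) against the length of all annotated exons in kb (horizontal axis, log scale) for the 10 genes (points) and the median of all tested genes in 6 length classes (grey bars). The class medians run from 0.22 for the shortest to -0.38 for the longest genes. ATM at -1.60 lies far below the median of its class, of which 4.67% of the genes were lower.

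ATRIP, the partner that docks ATR on RPA-coated DNA, was at 10.3, 9.97 and 12.7 CPM in OE replicates 1, 2 and 3, against 7.94, 8.87 and 8.80 CPM in control replicates 1, 2 and 3. The groups did not overlap, with a log2 fold change of 0.37 (interval 0.03 to 0.71) that did not pass the test (edgeR adjusted p = 0.259). TOPBP1, the activator of ATR, was at 131, 124 and 109 CPM in OE replicates 1, 2 and 3, against 88.1, 98.1 and 98.3 CPM in control replicates 1, 2 and 3. Here, too, the lowest OE library, replicate 3, was above the highest control. The log2 fold change of TOPBP1 was 0.35 (interval 0.11 to 0.60, edgeR adjusted p = 0.153), and without OE replicate 3 it was 0.42 and passed (adjusted p = 0.0458).

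Among the adaptors at the fork, CLSPN showed the clearest separation of the groups. It was at 47.5, 51.0 and 39.95 CPM in OE replicates 1, 2 and 3, against 22.1, 25.1 and 22.4 CPM in control replicates 1, 2 and 3, so that the lowest OE library was well above the highest control. The log2 fold change was 0.99 (SE 0.126, interval 0.70 to 1.28, edgeR adjusted p = 0.0192). The direction held in all 16 other fits that were made, with log2 fold changes of 0.70 to 1.08. The call was kept without OE replicate 3 (adjusted p = 0.00534), and leaving out any of the other 5 libraries ended it, at 0.0867 and 0.0523 without OE replicates 1 and 2 and at 0.0915, 0.0836 and 0.108 without control replicates 1, 2 and 3.

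How many genes of the whole table were called differed widely between these fits, which sets the scale for the count among the 10. CLSPN alone of the 10 was called with RLE scaling, upper-quartile scaling, no filter on low counts, limma-voom and edgeR without robust estimation, where 0.735%, 0.633%, 0.603%, 0.516% and 0.511% of all genes were called higher. With at least 50 counts in 3 libraries 2 of the 10 were called (background 1.08%), with the length trend removed 3 (background 1.54%) and without OE replicate 3 also 3 (background 1.59%). None was called by limma-trend on the deposited values (background 0.527%). None was called without OE replicates 1 or 2 (backgrounds 0.0828% and 0.222%) or without control replicates 1, 2 or 3 (backgrounds 0.0617%, 0.0411% and 0.0621%).

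TIMELESS, the larger subunit of the fork protection complex, was at 89.3, 88.3 and 96.2 CPM in OE replicates 1, 2 and 3, against 67.7, 66.1 and 62.9 CPM in control replicates 1, 2 and 3. The spread within each group was small and the groups lay apart, with a log2 fold change of 0.48 (interval 0.27 to 0.69) that just missed the threshold (edgeR adjusted p = 0.0538). Without OE replicate 3 the gene passed (0.43, adjusted p = 0.0358). Its partner TIPIN was at 17.2, 17.3 and 20.7 CPM in OE replicates 1, 2 and 3, against 12.1, 14.9 and 15.4 CPM in control replicates 1, 2 and 3. The OE libraries were above the controls by a smaller margin, at a log2 fold change of 0.38 (interval 0.04 to 0.72, edgeR adjusted p = 0.246).

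The effector kinases and their target did not pass the test either. CHEK1, the kinase that claspin serves, was at 15.9, 18.9 and 18.6 CPM in OE replicates 1, 2 and 3, against 16.6, 13.2 and 14.6 CPM in control replicates 1, 2 and 3. OE replicate 1 lay below control replicate 1, and the log2 fold change of 0.26 had an interval from -0.06 to 0.59 (edgeR adjusted p = 0.383). CHEK2, the kinase downstream of ATM, was at 32.4, 28.6 and 35.6 CPM in OE replicates 1, 2 and 3, against 23.6, 23.8 and 23.9 CPM in control replicates 1, 2 and 3. The controls were close to each other and below all OE libraries, with a log2 fold change of 0.44 (interval 0.17 to 0.71, edgeR adjusted p = 0.121).

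CDC25A, the phosphatase that the checkpoint removes, was at 13.8, 16.0 and 17.0 CPM in OE replicates 1, 2 and 3, against 8.75, 10.5 and 9.35 CPM in control replicates 1, 2 and 3. It had the second largest log2 fold change of the 10 genes, 0.71 (interval 0.38 to 1.04), without overlap between the groups and just short of the threshold (edgeR adjusted p = 0.0607). It passed after the trend with gene length was removed (adjusted p = 0.0460), as did TIMELESS (adjusted p = 0.0319). DESeq2 called 4 of the 10 higher, CLSPN, CDC25A, TIMELESS and CHEK2, where it called 4.4% of all genes with an adjusted p higher.

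**Figure D3:**
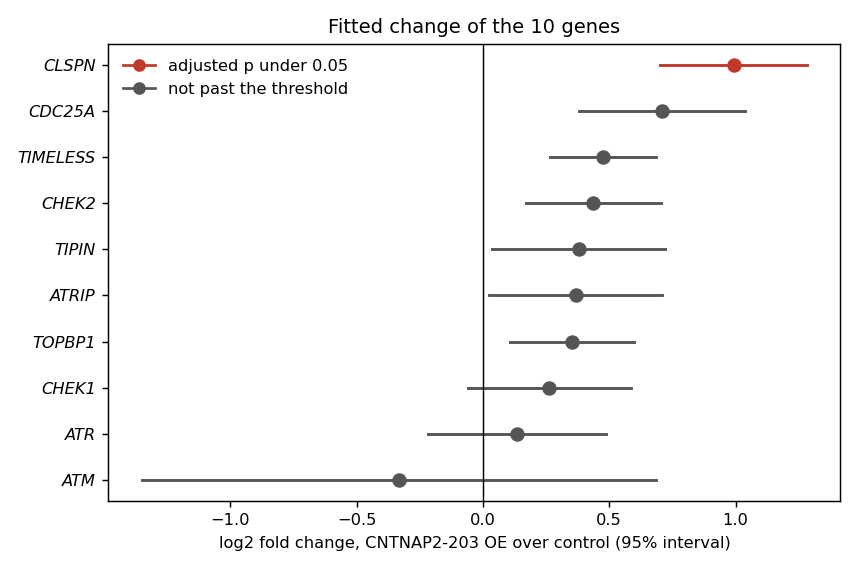
Log2 fold change of each of the 10 genes, OE over control (horizontal axis), with its 95% interval from the edgeR fit; red marks an adjusted p under 0.05. CLSPN at 0.99 is the gene past the threshold, the intervals of 7 genes lie above 0, and that of ATM runs from -1.35 to 0.69.

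Levels between genes were compared as CPM per kb of annotated exons. In OE the order was TOPBP1 (16.6 ± 1.52), TIMELESS (15.7 ± 0.738), CLSPN (8.53 ± 1.05), CHEK2 (7.17 ± 0.779), TIPIN (6.67 ± 0.720), ATR (5.59 ± 0.997), CDC25A (3.79 ± 0.395), CHEK1 (2.71 ± 0.250), ATRIP (2.03 ± 0.274) and ATM (0.468 ± 0.234), each in CPM per kb with its SD (n = 3). TOPBP1 and TIMELESS overlapped in OE, as did CLSPN with CHEK2 and CHEK2 with TIPIN, while every other step was free of overlap between neighbours. In controls TOPBP1 (12.99 ± 0.800) and TIMELESS (11.3 ± 0.419) were again at the top and ATRIP (1.57 ± 0.0952) and ATM (0.590 ± 0.120) at the bottom. CLSPN stood sixth in controls, at 4.29 ± 0.306 CPM per kb, after CHEK2 (5.29 ± 0.0413), TIPIN (5.13 ± 0.660) and ATR (5.09 ± 0.558). The libraries of CHEK2 and TIPIN, of TIPIN and ATR, and of ATR and CLSPN overlapped in controls, so the third to the sixth place were not separated step by step. CDC25A (2.32 ± 0.218) and CHEK1 (2.26 ± 0.258) overlapped there. The order of CLSPN, ATR and CHEK1 depends on the gene length used, since the lengths behind the deposited FPKM were 1.76, 2.17 and 0.777 times the GENCODE lengths of these genes, set against the median of the 10.

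Partners within the pathway were compared as log2 ratios of deposited FPKM in each library, with exact two-sided permutation tests whose smallest possible p is 0.1 with 3 against 3 libraries. The level and sign of a ratio depend on the gene lengths behind the FPKM, which differ as given above for CLSPN, ATR and CHEK1. The difference between the groups does not, as the same lengths enter every library. The ratio of CLSPN over CHEK1 was 0.68, 0.53 and 0.20 in OE replicates 1, 2 and 3, against -0.50, 0.02 and -0.28 in control replicates 1, 2 and 3. The groups did not overlap, and the difference of 0.72 reached that smallest p (exact permutation p = 0.1, adjusted over 5 ratios p = 0.5). For TIMELESS over TIPIN the mean log2 ratio was 1.23 ± 0.0840 in OE and 1.13 ± 0.239 in controls (SD, n = 3 each; exact permutation p = 0.6). That difference, 0.09, was smaller than the spread between the controls. CHEK1 over ATR (difference 0.14, exact permutation p = 0.6) and ATRIP over ATR (0.24, exact permutation p = 0.8) overlapped between the groups, and the adjusted p of the 5 ratios was 0.5 to 0.8. The difference in CHEK2 over ATM, 0.92 (exact permutation p = 0.2), rested on the ATM count of OE replicate 3 and was 0.31 without that library. Leaving out OE replicate 3 also turned the differences for CHEK1 over ATR and ATRIP over ATR to -0.05 and -0.03.

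The other genes of the pathway were 43 in 5 groups by role, all tested, of which 6 rose and none fell. Among them 33 had a positive log2 fold change, beside 9315 of all 18786 tested genes. Their median was 0.25, beside -0.0038 over all tested genes. The list was chosen with earlier results of these data known, so these counts describe it and test nothing. The share called higher among all tested genes was 0.798%, as above. In 21 of the 43 every OE library lay above every control, beside 13.7% of all tested genes, and in 2, BTRC and FBXO6, every OE library lay below every control, beside 12.8%. The calls fell in the groups for ATR activation and for the fork. The 3 other groups hold 9, 4 and 6 genes, too few to show a lack of calls at a share of 0.798%. A difference between the groups was not tested. H2AFX on the ATM side was not called at a log2 fold change of 0.77. The called RFC4, RFC5, CHTF18 and CDC7 were at 0.68, 0.58, 0.64 and 0.75.

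Of 13 genes of ATR activation 3 rose, with a median of 0.48. RFC3, RFC4 and RFC5 encode small subunits shared by the clamp loaders, including the RAD17 loader that places the RAD9A-RAD1-HUS1 clamp. RFC3 was at 57.1 ± 2.42 CPM in OE and 32.6 ± 2.84 CPM in controls (log2 fold change 0.81, edgeR adjusted p = 0.0199). RFC4 was at 64.3 ± 7.42 CPM in OE and 40.3 ± 2.19 CPM in controls (0.68, adjusted p = 0.0405), and RFC5 at 36.3 ± 2.18 CPM in OE and 24.3 ± 1.21 CPM in controls (0.58, adjusted p = 0.0472).

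Of 11 genes of fork protection and remodelling 3 rose, with a median of 0.40. DSCC1 and CHTF18, subunits of the alternative clamp loader that acts with cohesion, were at 19.9 ± 2.22 and 49.7 ± 5.65 CPM in OE, against 10.5 ± 0.139 and 31.8 ± 1.54 CPM in controls. Their log2 fold changes were 0.92 and 0.64 (edgeR adjusted p = 0.0252 and 0.0457). CDC7, the kinase that fires origins and modifies claspin, was at 21.3 ± 1.58 CPM in OE and 12.6 ± 1.12 CPM in controls (0.75, adjusted p = 0.0411). All 6 calls in these groups were kept when OE replicate 3 was left out, and all 6 were lost on leaving out any other single library, with adjusted p up to 0.211.

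None of the 9 genes on the ATM side passed, and the median was 0.13. The smallest p was for H2AFX, the histone variant that ATM phosphorylates, at 43.1 ± 8.40 CPM in OE and 25.3 ± 3.90 CPM in controls (log2 fold change 0.77, edgeR adjusted p = 0.0806). NBN and RAD50, partners in the complex that senses breaks, had log2 fold changes of 0.25 and -0.22 (adjusted p = 0.231 and 0.412), and RAD50 was at -0.12 without OE replicate 3. At an unadjusted p under 0.05 there were 2 of the 9, H2AFX and NBN, beside 17.2% of all tested genes in either direction. In 3 of the 16 other fits H2AFX passed: DESeq2 (adjusted p = 0.00395), edgeR without a filter on low counts (0.0466) and edgeR with the length trend removed (0.0450). These fits called 4.4%, 0.603% and 1.54% of all genes higher. NBN and RAD50 passed in none of the 16.

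None of the 4 genes on the CDC25 and WEE1 side passed (median 0.14), with log2 fold changes of 0.48 for the phosphatase CDC25C, 0.29 for the kinase PKMYT1 and -0.35 for the kinase WEE1. The value of WEE1 was -0.22 without OE replicate 3, 0.03 without control replicate 1 and -0.60 without control replicate 3. None of the 6 genes of claspin and CHK1 turnover passed either (median -0.0056). PLK1, the kinase that marks claspin for destruction, was at 107 ± 5.03 CPM in OE and 74.4 ± 13.99 CPM in controls (log2 fold change 0.52, edgeR adjusted p = 0.122). Of the 16 other fits DESeq2 alone called PLK1 (adjusted p = 0.0334), where 4.4% of all genes were called higher. BTRC and FBXO6, subunits of ubiquitin ligases, had log2 fold changes of -0.29 and -0.15. BTRC was at -0.17 without OE replicate 3. At an unadjusted p under 0.05 there were 2 of the 4 and 1 of the 6, beside the same 17.2% of all tested genes.

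**Figure D4:**
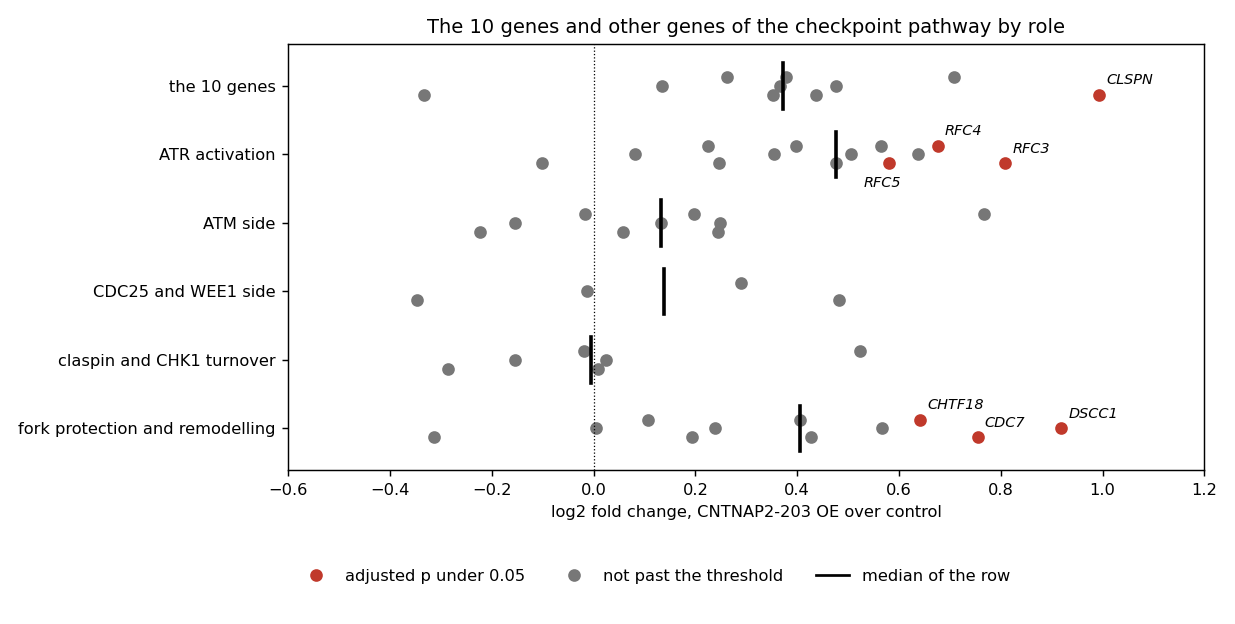
Log2 fold change, OE over control (horizontal axis), of the 10 genes and of 43 other genes of the pathway in 5 groups by role; points are genes, red marks an adjusted p under 0.05 and black bars give the median of each row. The medians are 0.37, 0.48, 0.13, 0.14, -0.0056 and 0.40 from top to bottom, and the 7 named genes are those called.

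In GENCODE 29 (GRCh38) 4 of the 10 genes lie on chromosome 3, which are ATR (ENSG00000175054, chr3:142449235-142578826, minus strand), TOPBP1 (ENSG00000163781, chr3:133598175-133662380, minus strand), CDC25A (ENSG00000164045, chr3:48157146-48188402, minus strand) and ATRIP (ENSG00000164053, chr3:48446710-48467645, plus strand). CDC25A and ATRIP are 258 kb apart. ATM (ENSG00000149311, chr11:108222484-108369102, plus strand) and CHEK1 (ENSG00000149554, chr11:125625136-125676255, plus strand) share chromosome 11. The others are CLSPN (ENSG00000092853, chr1:35720218-35769967, minus strand), TIMELESS (ENSG00000111602, chr12:56416373-56449403, minus strand), TIPIN (ENSG00000075131, chr15:66336206-66386746, minus strand) and CHEK2 (ENSG00000183765, chr22:28687743-28742422, minus strand). TIMELESS alone overlaps no other annotated gene. ATM overlaps NPAT and C11orf65, ATRIP overlaps TREX1, CHEK1 overlaps STT3A and ACRV1, CHEK2 overlaps HSCB, CLSPN overlaps the antisense gene AL354864.1 and TOPBP1 the pseudogene TFP1, while ATR, TIPIN and CDC25A overlap pseudogenes or small RNAs among others. The library kit does not mark strand, so reads of such pairs cannot be told apart where they overlap, and CHEK2 is known to have partial pseudogene copies that can take or lend reads.

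The genes closest to CHEK1 over the 6 libraries, by the mean absolute difference in log2 CPM relative to the control mean among 15288 genes with an ordinary symbol, were C11orf84 (0.025), PXMP4 (0.027) and PTGR1 (0.031). For ATM they were TMPPE (0.074), KLHL11 (0.079) and LIMS1 (0.081). These 3 genes were chosen over all 6 libraries, OE replicate 3 included, so low values in that library follow from the choice. Their values there were -1.66, -1.67 and -1.19, beside -1.54 for ATM.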

How the data were processed

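RNA of CAL27 cells was sequenced in 6 libraries, after ribosomal depletion and with the TruSeq RNA v2 kit, per the labels' protocols. Reads were trimmed with Trim Galore 0.4.4 and the genome build was hg38, per the submitters' processing notes; the aligner, counter and annotation were not given in the sources used here. For control replicate 1 the labels record a missing file of reverse reads and a submission as single-end. The authors deposited raw counts per gene and a table of log2 values. Set against the counts, these behave as log2(FPKM + 1): with that offset the gene length implied by a library varied between libraries by a median CV of 0.252%.

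Counts were filtered with filterByExpr (minimum count 10, leaving 18786 genes), scaled by TMM and tested with edgeR 4.0.16 (robust quasi-likelihood, group as the only term) in R 4.3.3, with Benjamini-Hochberg adjustment across the tested genes. CPM are TMM-scaled, ± is the SD, and intervals are at 95% from the fit. Exon lengths are from GENCODE 29 and matched 98.6% of tested genes. Alternatives used DESeq2 1.42.0, limma 3.58.1, other scalings and filters, removal of the trend with gene length (lengths implied by both deposited tables), a replicate block and each library left out. The scripts were tested on simulated counts. The members and lists were chosen with earlier results of these data known. Named genes were the 10, CNTNAP2, the 3 with the smallest p in each role group and the 3 closest to CHEK1 and to ATM.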

Additional observations from a re-analysis of the deposited data

How the results depend on the processing

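The log2 fold changes of the 10 genes kept their direction in all 16 alternatives but for ATM, which was 0.03 without OE replicate 3. Of 160 gene-by-alternative results, 145 stayed on the same side of the threshold, 8 passed newly and 7 were lost, all 7 for CLSPN. The number of the 10 called higher was 2 with at least 50 counts in 3 libraries, 4 by DESeq2, 3 after removal of the length trend, 0 by limma-trend on the deposited log2 values and 0 to 3 with 1 library left out. None was called lower in any alternative. The number of the 43 pathway genes called higher is given here with the share of all genes called higher in that fit. It was 12 by DESeq2 (4.4%), 3 by limma-voom (0.516%), 3 without robust estimation (0.511%) and 3 by limma-trend (0.527%). It was 4 with upper-quartile scaling (0.633%), 7 without a filter on low counts (0.603%) and 7 with the length trend removed (1.54%). With 1 library left out it was 0 to 7 (0.0411% to 1.59%). What the smaller number of libraries contributes was not tested. The median of the pathway genes was 0.23 with upper-quartile scaling, 0.14 by limma-trend, whose offset shrinks the changes of low genes, and 0.23 to 0.25 with 1 library left out. Over all genes the number called was 262, against 1125 by DESeq2, 484 after removal of the length trend, 354 without a filter, 167 without robust estimation, 166 by limma-voom and 14 to 545 with 1 library left out.

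Replicate numbers are shared by the titles of both groups, but same-numbered libraries did not deviate together (correlations of -0.08, 0.05 and -0.03). With the replicate block 0 of the 10 genes, 0 of the 43 pathway genes and 17 of all genes were called, and CLSPN had a log2 fold change of 0.99 with an adjusted p of 0.0642.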
